A study of Mus musculus with 10 samples.

Results

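The genes described here are 42 of the 27179 genes in the count table: chaperones and cochaperones of the endoplasmic reticulum (ER), its disulfide isomerases and oxidases, and the proteins of ER-associated degradation (ERAD). They were chosen by symbol, and all 42 were found, 2 of them through older symbols (Ero1l for Ero1a and Ero1lb for Ero1b). RNA of whole lungs was sequenced from 5 Flox mice (Shh +/+, IRE1α fl/fl) and 5 EpithelialKO mice (Shh Cre/+, IRE1α fl/fl). Both groups carry floxed alleles of the gene for IRE1α, and the EpithelialKO mice carry in addition 1 Shh allele that expresses Cre. Cre expressed from Shh acts in the lung epithelium, so RNA from the other cells of the lung is part of every value. The Flox mice carry no Cre, so that the Cre-bearing Shh allele and the loss of IRE1α cannot be told apart. The labels give no age. The question was what the loss of IRE1α from the epithelium does to the RNA of the whole lung.

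Secreted and membrane proteins fold in the ER with the help of BiP (Hspa5) and its J-domain partners, of the lectins calnexin and calreticulin, and of enzymes that make and reshuffle disulfide bonds. Proteins that fail to fold are trimmed of mannose, recognised by lectins, pulled back across the membrane and marked with ubiquitin for the proteasome, which is ERAD. When unfolded protein builds up, IRE1α splices Xbp1 mRNA and ATF6 is cut free from the membrane, and the transcription factors that result (XBP1s and ATF6) induce many of these genes. In the lung, alveolar type 2 (AT2) cells, club cells and plasma cells are the heavy secretors.

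Totals ranged from 14983829 to 21224412 counts per mouse, and the surfactant gene Sftpc and the club cell gene Scgb1a1, which mark lung epithelium, were at 28590 CPM or more and 15740 CPM or more in every mouse. CPM is the usual count scaled to library size, here after TMM, a normalisation for library composition. Flox mice 4 and 6 stood apart from the other 8 mice: their Xist levels were 215 and 247 CPM against 0.093 to 4.06 CPM. Ddx3y, a Y-linked gene, was at 0 CPM in both against 71.9 to 95.7 CPM. The Y-linked genes Eif2s3y, Kdm5d and Uty were also at 0 CPM in both. Every EpithelialKO mouse had Y-linked RNA, so sex as read from the RNA was not balanced between the groups. The genes with the lowest p, and medians that moved by over 1.5 times or turned sign, are given with and without these 2 mice. Differences are given as a log2 ratio, the log2 fold change of EpithelialKO over Flox fitted by edgeR, ± its standard error (SE). Ern1, the gene for IRE1α, was at 0.04 ± 0.27, and Xbp1 at 0.04 ± 0.11 (edgeR adjusted p = 0.975 and 0.938). Counts over the whole gene in whole lung check neither the deletion nor the splicing of Xbp1.

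No gene of the set passed the threshold, a Benjamini-Hochberg adjusted p under 0.05 in edgeR's quasi-likelihood test over the 15301 genes tested. The background of calls was 0.0392% of genes, and the lowest adjusted p of the 42 was 0.145, for P4hb. At an unadjusted p under 0.05 there were 10 of the 42 (23.8%), 9 lower and 1 higher in EpithelialKO, beside 12.4% of all genes tested. Split by direction, 6.52% of all genes were lower and 5.87% higher at that threshold. Without Flox mice 4 and 6 the count was 7, beside 7.68% of genes. The DESeq2 Wald test called 1 of the 42, P4hb (adjusted p = 0.0244), beside 1.82% of genes, with 11 of the 42 at an unadjusted p under 0.05 beside 13.2% of genes. Limma-voom called 0 beside 0.19% of genes, with 14 of the 42 at an unadjusted p under 0.05 beside 16.2% of genes. The sentences below therefore give values and do not state that a gene changed.

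All 42 genes were expressed highly enough to be tested. Of their log2 ratios, 25 were negative and 17 positive, with a median of -0.08 against 0.00 for all genes tested, of which 49.9% were negative. Without Flox mice 4 and 6 the median of the 42 was -0.05, and it was -0.05 without EpithelialKO mouse 17. The largest negative value was -0.45 for Pdia5 and the largest positive value 0.34 for Hspa5. In 4 genes, Pdia5, Edem1, Edem2 and Man1b1, all 5 EpithelialKO mice lay below all 5 Flox mice, which is 9.52% of the set beside 3.12% of all genes tested in either direction and 1.48% in this direction. The other direction held 0 of the 42, beside 1.63% of all genes. In 10 of the 42 all 5 EpithelialKO mice lay below the Flox mean, beside 12.9% of all genes tested. In 2 of the 42, Pdia3 and Derl2, all 5 lay above it, beside 10.6% of all genes.

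**Figure D1:**
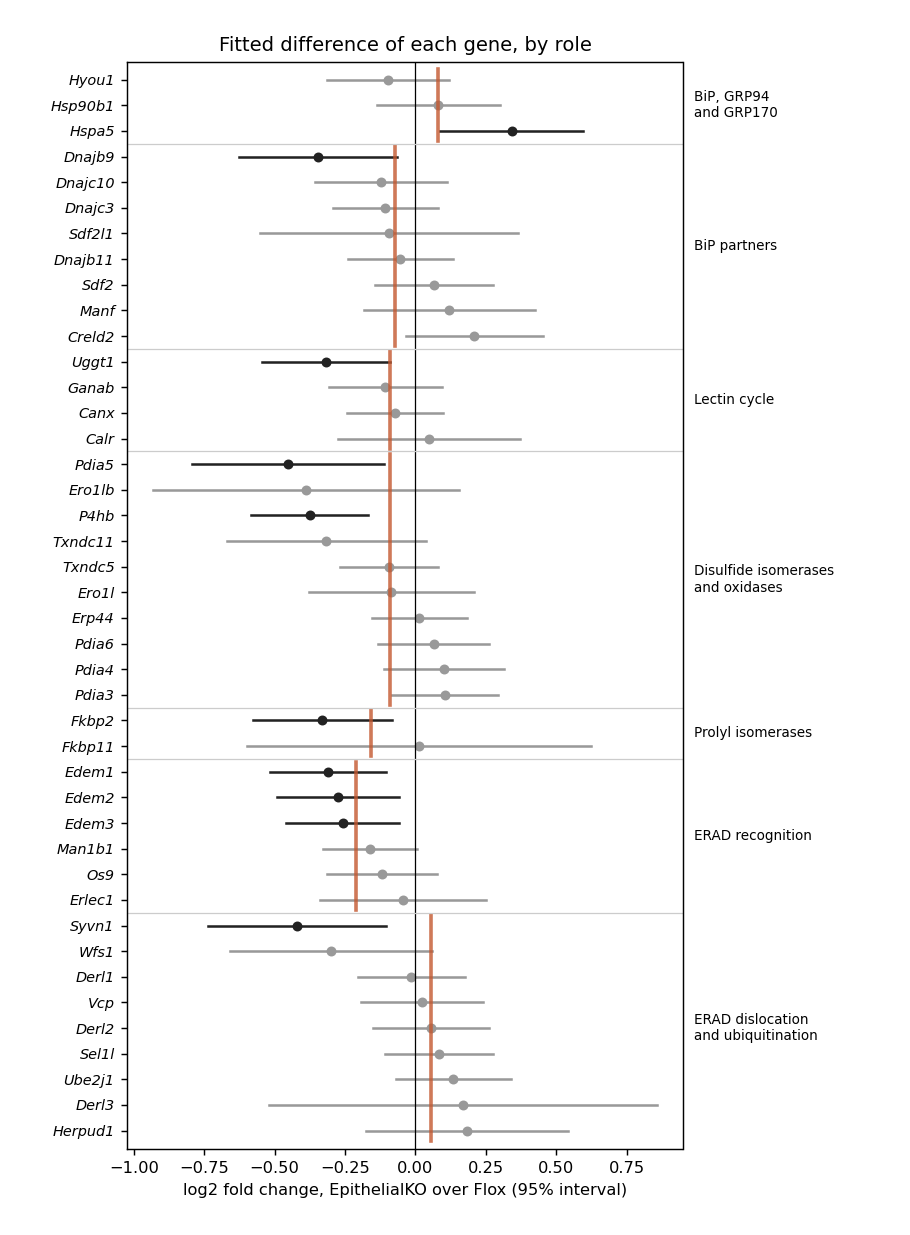
Fitted log2 fold change (EpithelialKO over Flox, x axis) of each of the 42 genes with its 95% interval, grouped by role; dark points have an unadjusted p under 0.05 and the vertical orange bars are group medians. The 6 ERAD recognition genes all lie left of 0, whereas Hspa5 is the dark point on the right at 0.34.

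Expressed per length (CPM per kilobase of exon, so that genes can be compared), the most abundant in Flox lungs were Hsp90b1 at 184, Pdia3 at 179, Hspa5 at 126 and P4hb at 116. Herpud1 (99.1), Calr (95.8) and Canx (86.0) followed. Apart from Herpud1, an ERAD protein, these 7 are general chaperones, lectins and isomerases. The EDEM genes were between 9.84 (Edem3) and 11.7 (Edem2) on the same scale. The scarcest were Fkbp11 at 1.77 and Derl3 at 1.81, both known from cells that secrete much protein. Together the 42 genes summed to 5796 to 6450.1 CPM in Flox and 5479 to 6732 CPM in EpithelialKO mice, so the groups overlapped in total level.

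Promoters of 38 of the 42 genes were in the RefSeq table (GRCm38.p6, from 250 bases before to 50 after the start), and 16 of them (42.1%) held at least 1 of 3 stress motifs, against 0.884% of the 27025 genes in the table. Both strands were searched for the ER stress response element (ERSE, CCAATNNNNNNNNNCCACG), which ATF6 and XBP1s bind with NF-Y, for its shorter form ERSE-II (ATTGG and CCACG with 1 base between them) and for the unfolded protein response element (UPRE, TGACGTGG). The ERSE was in 10 of the 38 (26.3%) against 0.137% of all genes, the ERSE-II in 2 (5.3% against 0.0444%) and the UPRE in 4 (10.5% against 0.714%). The motifs share the letters CCACG on one strand or the other. These shares come from the reference genome and are no result of these mice. An excess was set in advance, because many of the genes are known targets of these factors. Besides the genes shown, Calr, Canx, Derl3, Pdia6, Ero1lb and Dnajc3 held an ERSE, Dnajb11 an ERSE-II, and Ube2j1, Vcp and Txndc5 a UPRE. The windows below show the matches in capitals, read 5′ to 3′ on the strand of the gene, for the genes with a motif and the lowest p in each direction (Hspa5 and Creld2 higher, Syvn1 and Txndc11 lower), for Hsp90b1, which has a pair, and for Herpud1, which has the ERSE-II. The matches begin 65 bases before the start in Hspa5, 126 in Creld2, 212 and 107 in Hsp90b1, 52 in Herpud1, 44 in Syvn1 and 102 in Txndc11. For Txndc11 the start used lies inside the annotated gene (chromosome 16, 11074911 to 11134645), and so does its window. The match of Txndc5 also lies inside its annotated gene. In Creld2 and in the second match of Hsp90b1 the ERSE lies on the opposite strand.
Hspa5 (chr2:34772015-34772053, plus strand): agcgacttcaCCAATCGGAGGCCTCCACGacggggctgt
Creld2 (chr15:88819510-88819548, plus strand): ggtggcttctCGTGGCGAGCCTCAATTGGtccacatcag
Hsp90b1 (chr10:86705523-86705666, minus strand): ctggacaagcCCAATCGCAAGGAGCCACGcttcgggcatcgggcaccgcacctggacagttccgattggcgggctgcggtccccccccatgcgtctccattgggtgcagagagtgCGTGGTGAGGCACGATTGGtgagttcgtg
Herpud1 (chr8:94386367-94386397, plus strand): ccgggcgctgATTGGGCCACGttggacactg
Syvn1 (chr19:6046522-6046560, plus strand): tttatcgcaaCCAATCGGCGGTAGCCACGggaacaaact
Txndc11 (chr16:11134617-11134644, minus strand): gaagtgtggcTGACGTGGagagtccggg

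Genes with a motif lay on both sides of 0. The 12 genes with an ERSE or ERSE-II had a median log2 ratio of 0.06, with 5 negative and 7 positive, and the 16 with any motif had 0.04. Both medians were -0.06 without Flox mice 4 and 6, so that their sign rested on those mice. The 22 genes in the table with none had a median of -0.12, with 15 negative and 7 positive, and -0.13 without those mice. Of the 10 genes at an unadjusted p under 0.05, 2 held a motif, Hspa5 and Syvn1, and they lay on opposite sides of 0. The other 8, all lower in EpithelialKO, held none in this window, and none of the 5 ERAD recognition genes in the table did. A window without these letters says nothing about the factors elsewhere in the gene.

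The major chaperones were BiP (Hspa5), GRP94 (Hsp90b1) and GRP170 (Hyou1), the ER members of the HSP70, HSP90 and HSP110 families. In this and all later sentences values are in mouse order, Flox mice 2, 3, 4, 5 and 6 and EpithelialKO mice 17, 18, 20, 21 and 22. Hspa5 (Entrez 14828, chromosome 2, 34772090 to 34776529) was at 521, 496, 519, 636 and 486 CPM in Flox and 502, 716, 640.1, 817 and 694 CPM in EpithelialKO. EpithelialKO mice 18, 20, 21 and 22 stood above every Flox mouse, and mouse 17 lay within the Flox range. The means were 532 ± 60.2 and 674 ± 115 CPM (SD, n = 5 each), a log2 ratio of 0.34 ± 0.12 (edgeR unadjusted p = 0.011, adjusted p = 0.249). Without Flox mice 4 and 6 the log2 ratio was 0.29 (edgeR unadjusted p = 0.0627).

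Levels of Hspa5 are set here beside those of a cytosolic chaperone. Hspa8, the constitutive HSP70 of the cytosol (chosen after its values were seen, for its likeness to Hspa5), was at 1495, 1199, 1249, 1796 and 1116 CPM in Flox and 1159, 2575, 1765, 2959 and 1848 CPM in EpithelialKO. The same 5 mice, Flox mouse 5 and EpithelialKO mice 18, 20, 21 and 22, were highest in both genes. Over the 10 mice the log2 levels had Pearson's r = 0.967 and Spearman's rho = 0.976, given as a description with no test because Hspa8 was picked for this pattern. Pearson's r was 0.947 over the 8 mice left without EpithelialKO mice 18 and 21, the farthest from the median in Hspa8, and 0.953 between the deviations from the group means. The 12 heat shock genes listed outside the ER, cytosolic except for the mitochondrial Hspd1 and Hspe1, had a median log2 ratio of 0.29, with 8 positive. They summed to 3297 to 6200.1 CPM in Flox and 3649 to 7774 CPM in EpithelialKO. Leaving out Flox mice 4 and 6 brought that median to 0.06. It was 0.61 when Flox mouse 5 alone was left out, 0.19 and 0.18 when Flox mouse 4 or 6 was, and 0.16 and 0.15 when EpithelialKO mouse 18 or 21 was. Their part in the Hspa5 difference was not tested.

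**Figure D2:**
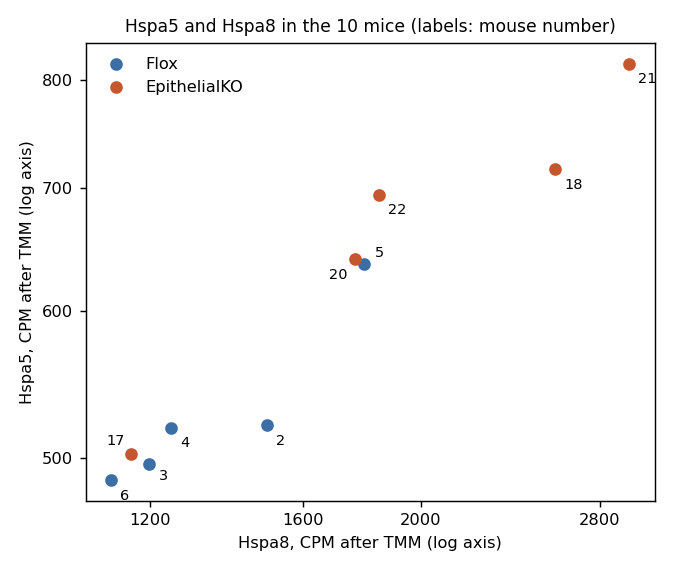
Level of Hspa5 (y axis) against Hspa8 (x axis), both in CPM after TMM on log axes, with 1 point per mouse and its number. The points form a single band in which EpithelialKO mouse 17 sits among the low Flox mice and Flox mouse 5 beside EpithelialKO mouse 20.

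The other major chaperones showed no such separation. Hsp90b1 had a mean of 742 ± 103 CPM in Flox and 785 ± 64.2 CPM in EpithelialKO (SD, n = 5 each), a log2 ratio of 0.08 ± 0.10 with a 95% interval of -0.14 to 0.30. Hyou1, which exchanges the nucleotide of BiP, was at 100.4, 95.8, 103, 81.9 and 101 CPM in Flox and 85.2, 108, 82.6, 96.8 and 79.4 CPM in EpithelialKO, and the groups overlapped. Its log2 ratio was -0.10 ± 0.10, with an interval of -0.31 to 0.12. The median of the 3 genes was 0.08, and 0.0079 without Flox mice 4 and 6.

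Of the partners of BiP, Dnajb9 had the largest difference. Dnajb9 encodes ERdj4, a J-domain protein that directs misfolded clients to degradation and binds IRE1α together with BiP. It (Entrez 27362, chromosome 12, 44205897 to 44210068) was at 70.9, 61.9, 71.4, 81.3 and 58.8 CPM in Flox and 38.1, 58.6, 55.3, 66.2 and 52.5 CPM in EpithelialKO. All 5 EpithelialKO mice lay below the Flox mean, mouse 17 lowest, and mouse 21 above Flox mice 3 and 6. The log2 ratio was -0.35 ± 0.13 (edgeR unadjusted p = 0.0187, adjusted p = 0.288), -0.40 without Flox mice 4 and 6, and -0.24 when EpithelialKO mouse 17 was left out. Dnajb9 and Hspa5, partners in the same cycle, thus had differences of opposite sign.

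The remaining partners were close to their Flox levels or spread widely. Creld2, a secreted stress protein with disulfide isomerase motifs, was at 54.2, 54.7, 56.1, 63.5 and 42.2 CPM in Flox and 52.6, 65.6, 70.2, 65.7 and 58.5 CPM in EpithelialKO, with 4 EpithelialKO mice above the Flox mean. Its log2 ratio was 0.21 ± 0.12 (edgeR unadjusted p = 0.088), and 0.12 without Flox mice 4 and 6. Manf, a cofactor that stabilises BiP with its clients, had 0.12 ± 0.14, and 0.02 without Flox mice 4 and 6. The J-domain proteins Dnajc3 (p58IPK), Dnajc10 (ERdj5, a disulfide reductase of ERAD) and Dnajb11 (ERdj3) had -0.11, -0.12 and -0.05. Sdf2 and Sdf2l1, which form a complex with ERdj3, had 0.07 and -0.09, and Sdf2l1 had 0.0055 without Flox mice 4 and 6. The 8 partners had a median log2 ratio of -0.07, with 5 negative, and -0.05 without Flox mice 4 and 6. It was 0.03 without EpithelialKO mouse 17, so that its sign rested on that mouse.

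In the lectin cycle, the folding sensor Uggt1 had the lowest p. Uggt1 puts a glucose back on glycoproteins that are not yet folded, which returns them to calnexin and calreticulin. It (Entrez 320011, chromosome 1, 36140028 to 36244320) was at 86.0, 69.1, 77.0, 70.8 and 77.3 CPM in Flox and 50.5, 74.3, 62.3, 60.7 and 57.2 CPM in EpithelialKO. All 5 EpithelialKO mice lay below the Flox mean, and mouse 18 lay above Flox mice 3 and 5. The log2 ratio was -0.32 ± 0.11 (edgeR unadjusted p = 0.00907, adjusted p = 0.241) and -0.30 without Flox mice 4 and 6. Ganab, the catalytic subunit of glucosidase II that removes those glucoses, was at 114, 101, 109, 93.3 and 111 CPM in Flox and 82.9, 108, 93.7, 106 and 101 CPM in EpithelialKO, with a log2 ratio of -0.11 ± 0.09. The membrane lectin Canx had -0.07 ± 0.08, with an interval of -0.24 to 0.10, and the soluble lectin Calr had 0.05 ± 0.15 (-0.27 to 0.37). A pseudogene, Calr-ps, is annotated and may share reads with Calr.

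**Figure D3:**
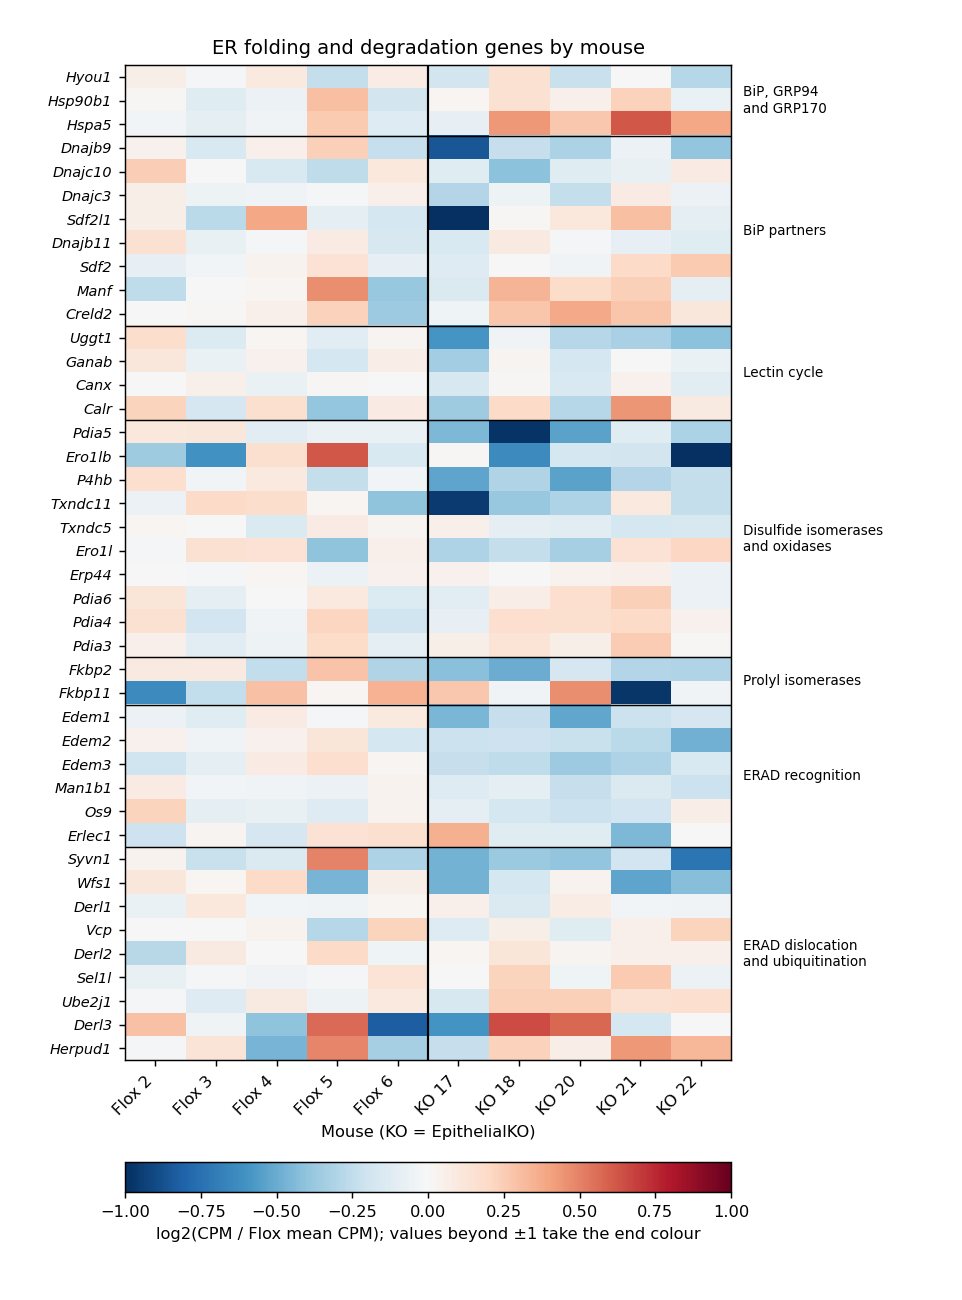
Level of each of the 42 genes (rows, grouped by role) in each of the 10 mice (columns), as log2 of CPM over the Flox mean, red above and blue below. The ERAD recognition rows are mostly blue in the 5 EpithelialKO columns, and Flox mouse 5 and EpithelialKO mice 18 and 21 are red in Hspa5 and Manf.

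Among the disulfide isomerases, P4hb and Pdia5 had the lowest p. P4hb encodes PDI itself, the main disulfide isomerase, which is also the beta subunit of the collagen prolyl 4-hydroxylase. It (Entrez 18453, chromosome 11, 120560298 to 120573253) was at 373, 325, 355, 281 and 325 CPM in Flox and 229.8, 269, 229, 270.3 and 282 CPM in EpithelialKO. The groups met at a single point, Flox mouse 5 lying just below EpithelialKO mouse 22. The means were 332 ± 35.0 and 256 ± 24.7 CPM (SD, n = 5 each), a log2 ratio of -0.37 ± 0.10 with an interval of -0.58 to -0.17. The edgeR unadjusted p was 0.00143 and the adjusted p 0.145; the DESeq2 Wald test gave an adjusted p of 0.0244, and without Flox mice 4 and 6 the log2 ratio was -0.35.

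Pdia5 (PDIR), an isomerase known to release ATF6 for export from the ER, was scarce. It (Entrez 72599, chromosome 16, 35397308 to 35490919) was at 18.3, 18.4, 15.8, 16.3 and 16.3 CPM in Flox and 12.5, 8.63, 11.7, 15.7 and 13.7 CPM in EpithelialKO. The groups did not overlap, but EpithelialKO mouse 21 lay next to the lowest Flox mouse. Its log2 ratio of -0.45 ± 0.16 (edgeR unadjusted p = 0.0123, adjusted p = 0.257) was the lowest of the 42 genes, and it was -0.51 without Flox mice 4 and 6.

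The other isomerases and the oxidases were spread around 0. Pdia3 (ERp57), which works with the lectins, had 0.11 ± 0.09, and Pdia4 (ERp72) and Pdia6 (P5) had 0.10 and 0.07. Without Flox mice 4 and 6 Pdia3, Pdia4 and Pdia6 had 0.06, 0.03 and 0.02. Erp44, which retains client proteins in the early secretory pathway, had 0.01 ± 0.08. Txndc5 had -0.09, and its exons overlap those of Bmp6 by 224 bases on the other strand. Txndc11, a partner of the EDEM proteins, had -0.32 ± 0.17. Of the oxidases that pass electrons from PDI to oxygen, Ero1lb had -0.39 ± 0.26 with a wide interval of -0.93 to 0.16, and Ero1l had -0.09 ± 0.14. The 10 genes had a median of -0.09, 6 negative.

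The prolyl isomerases of the ER, Fkbp2 and Fkbp11, differed in level and in precision. Fkbp2 (FKBP13; Entrez 14227, chromosome 19, 6977737 to 6980464) was at 78.2, 78.4, 62.0, 89.3 and 59.5 CPM in Flox and 55.1, 52.0, 65.5, 60.0 and 59.7 CPM in EpithelialKO. All 5 EpithelialKO mice lay below the Flox mean, but Flox mice 4 and 6 lay within the EpithelialKO range. The log2 ratio was -0.33 ± 0.12 (edgeR unadjusted p = 0.0118, adjusted p = 0.255) and -0.49 without those 2 mice. Fkbp11 was at 3.07, 4.04, 5.87, 4.86 and 6.10 CPM in Flox and 5.78, 4.67, 6.62, 2.43 and 4.68 CPM in EpithelialKO, and its log2 ratio of 0.01 ± 0.29 had an interval of -0.60 to 0.62. The median of the 2 prolyl isomerases was -0.16, and -0.10 without Flox mice 4 and 6.

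The ERAD recognition genes lay on one side of 0, with 6 of 6 negative log2 ratios and a median of -0.21 (-0.19 without Flox mice 4 and 6). EDEM1, EDEM2 and EDEM3 and the mannosidase Man1b1 trim mannose from glycoproteins that stay unfolded, and the lectins Os9 and Erlec1 read the trimmed sugar. Of the 6, 3 had an unadjusted p under 0.05 (6.52% of all genes tested were lower at that threshold) and 3 did not overlap between the groups (1.48% of all genes in this direction). The roles were set with earlier results of these data known, so these counts are not independent evidence. Edem1 (Entrez 192193, chromosome 6, 108824045 to 108859356) was at 66.2, 63.3, 73.0, 68.2 and 73.8 CPM in Flox and 50.2, 58.8, 48.0, 59.3 and 61.5 CPM in EpithelialKO, a log2 ratio of -0.31 ± 0.10 (edgeR unadjusted p = 0.00572, adjusted p = 0.205). Every EpithelialKO mouse lay below every Flox mouse.

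Edem2 (Entrez 108687, chromosome 2, 155701673 to 155729475) was at 41.7, 39.5, 41.7, 44.0 and 35.9 CPM in Flox and 35.0, 35.0, 34.7, 33.6 and 29.1 CPM in EpithelialKO. The groups did not overlap, Flox mouse 6 lying closest to the EpithelialKO mice, and the log2 ratio was -0.28 ± 0.10 (edgeR unadjusted p = 0.0157, adjusted p = 0.277). Edem3 (Entrez 66967, chromosome 1, 151755344 to 151822328) was at 54.8, 58.6, 66.3, 70.4 and 63.7 CPM in Flox and 53.5, 52.8, 48.8, 50.7 and 56.6 CPM in EpithelialKO. Flox mouse 2 lay below EpithelialKO mouse 22, and the log2 ratio was -0.26 ± 0.10 (edgeR unadjusted p = 0.0151, adjusted p = 0.274). The 3 EDEM genes therefore had similar differences, from -0.31 to -0.26, at similar levels per length. Without Flox mice 4 and 6 their log2 ratios were -0.24, -0.32 and -0.22, at unadjusted p of 0.0577, 0.0233 and 0.0824 in edgeR.

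Man1b1 was at 98.5, 91.7, 90.9, 89.7 and 95.5 CPM in Flox and 85.4, 87.3, 79.4, 84.3 and 80.3 CPM in EpithelialKO (chosen after its values were seen, because the groups did not overlap). The difference was small beside those of the EDEM genes, -0.16 ± 0.08 (edgeR unadjusted p = 0.0564). Its exons share 234 bases with a noncoding gene on the other strand. Os9 had -0.12 ± 0.09 and Erlec1 -0.04 ± 0.14, with overlapping groups.

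**Figure D4:**
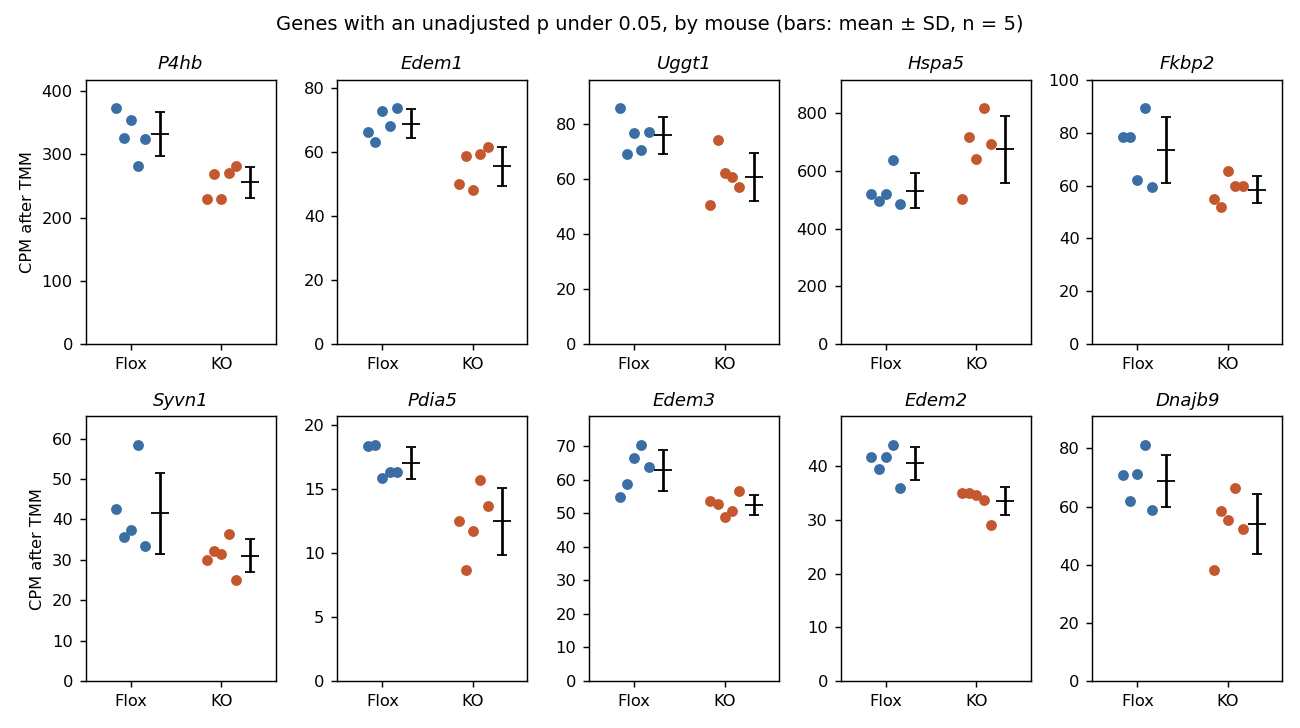
CPM after TMM (y axis, from 0) of the 10 genes with an unadjusted p under 0.05 in each Flox and EpithelialKO (KO) mouse, ordered by p, with the mean and SD of each group beside the points (n = 5 each). Edem1, Edem2 and Pdia5 separate the groups, and in Hspa5 EpithelialKO mouse 17 is the low point.

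Past recognition, the genes of dislocation and ubiquitination showed mixed differences, 3 negative and 6 positive, with a median of 0.06. The median turned to -0.02, with 5 negative, when Flox mice 4 and 6 were left out. Syvn1 (HRD1), the ubiquitin ligase at the centre of the complex, had the lowest p among them. It (Entrez 74126, chromosome 19, 6046576 to 6053718) was at 42.5, 35.6, 37.5, 58.5 and 33.4 CPM in Flox and 29.9, 32.1, 31.5, 36.3 and 25.1 CPM in EpithelialKO. Flox mouse 5 was far above the other mice, and EpithelialKO mouse 21 lay above Flox mice 3 and 6. The log2 ratio was -0.42 ± 0.15 (edgeR unadjusted p = 0.0122, adjusted p = 0.257), -0.27 without Flox mouse 5 and -0.55 without Flox mice 4 and 6. The exons of Syvn1 overlap those of Mrpl49 by 91 bases on the other strand.

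Sel1l, the partner that holds Syvn1 in its complex, did not share this difference, at 120.3, 125, 124, 125 and 139 CPM in Flox and 127, 148, 123, 152 and 122 CPM in EpithelialKO (chosen after its values were seen). Its log2 ratio was 0.08 ± 0.09, with an interval of -0.11 to 0.27. The channel proteins Derl1, Derl2 and Derl3 had -0.01, 0.06 and 0.17, the last at a level of 3.60 ± 1.31 CPM in Flox (SD, n = 5). Without Flox mice 4 and 6 the log2 ratio of Derl3 was -0.12. Herpud1, a short-lived organiser of the complex, had 0.18 ± 0.17, and -0.03 without Flox mice 4 and 6. The ubiquitin-conjugating enzyme Ube2j1 had 0.14 ± 0.10 and Vcp, the ATPase that extracts the substrate, 0.02 ± 0.10. Wfs1, which recruits ATF6 to Syvn1, was at 15.1, 14.1, 15.9, 10.1 and 14.5 CPM in Flox and 10.1, 12.4, 14.3, 9.68 and 10.4 CPM in EpithelialKO, with a log2 ratio of -0.30 ± 0.17 (edgeR unadjusted p = 0.0975).

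Set side by side as a mean log2 level per mouse relative to the 10 mice, ERAD recognition stood at 0.08, 0.05, 0.09, 0.14 and 0.13 in Flox and -0.02, -0.08, -0.18, -0.16 and -0.05 in EpithelialKO. The groups did not overlap. The disulfide group stood at 0.11, 0.03, 0.11, 0.13 and -0.01 in Flox and -0.14, -0.14, -0.07, 0.11 and -0.12 in EpithelialKO, with EpithelialKO mouse 21 among the Flox mice. The major chaperones went the other way on average, at -0.03, -0.12, -0.04, 0.06 and -0.13 in Flox and -0.13, 0.20, -0.01, 0.24 and -0.03 in EpithelialKO, and overlapped. EpithelialKO mouse 17 had the lowest level of all 10 mice in the BiP partners, the lectin cycle, the disulfide group and the dislocation genes. In the disulfide group it was close to EpithelialKO mouse 18, at -0.1406 against -0.1386. These levels are a description, with no test of a group or of a difference between groups. Because the roles were set with earlier results of these data known, the levels are not independent evidence about a role.

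**Figure D5:**
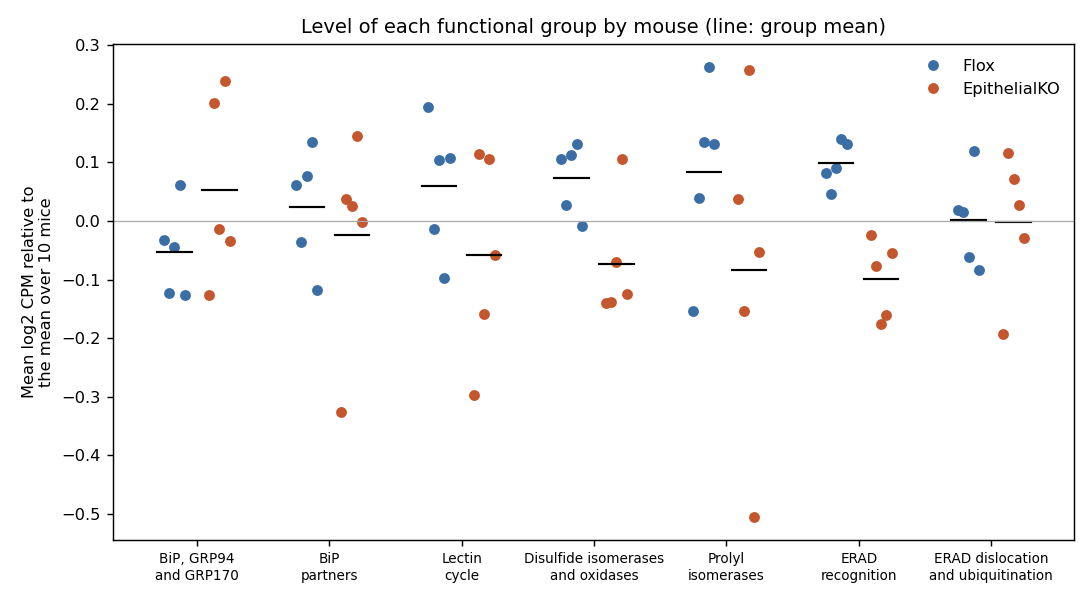
Mean log2 CPM of each of the 7 roles in each mouse (y axis, relative to the mean over the 10 mice); points are mice and lines group means. ERAD recognition is the role in which all EpithelialKO points lie below all Flox points. The roles were set with earlier results of these data known, and no role was tested.

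Sorted by regulator, the 8 genes listed here as depending on XBP1s were Dnajb9, Edem1, Edem2, Dnajc3, Derl2, Fkbp11, Txndc11 and Pdia5. They had a median log2 ratio of -0.29, with 6 negative and 4 at an unadjusted p under 0.05, all lower, beside 6.52% of all genes tested. Their mean levels were 0.03, 0.10, 0.19, 0.19 and 0.07 in Flox and -0.24, -0.12, -0.08, -0.05 and -0.08 in EpithelialKO, without overlap. The 11 genes described as ATF6 targets (Hspa5, Hsp90b1, Hyou1, Calr, Pdia4, Pdia6, Creld2, Manf, Sdf2l1, Herpud1 and Dnajb11) had a median of 0.08, with 3 negative and 1, Hspa5, at an unadjusted p under 0.05, beside 5.87% of all genes higher. Without Flox mice 4 and 6 the medians were -0.28 and 0.02. Several genes respond to both factors, and the other genes of the set, Derl1 and Derl3 among them, were put in neither list. The division is therefore approximate, and another one could give other medians. The lists were set with results of these mice known, so that neither the counts nor the levels are independent evidence. Whether the lists differ was not tested.

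The regulators themselves were measured beside them. Atf6 was at 76.3, 60.9, 74.6, 64.2 and 66.5 CPM in Flox and 57.1, 57.3, 43.1, 57.8 and 44.9 CPM in EpithelialKO, without overlap, a log2 ratio of -0.40 ± 0.11 (edgeR adjusted p = 0.162). Creb3l2, a relative of ATF6, had -0.62 ± 0.19, and Ddit3, which encodes CHOP, 0.40 ± 0.13 (edgeR adjusted p = 0.184 and 0.205). Of the 10 sensors and transcription factors listed, 3 had an unadjusted p under 0.05 in edgeR, Atf6 and Creb3l2 lower and Ddit3 higher, beside 12.4% of all genes tested. Their median of -0.18 was -0.07 without Flox mice 4 and 6.

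The medians of the folding and ERAD genes outside the set were near 0. Of 27 other ER folding genes 25 were tested, and 0 had an unadjusted p under 0.05. Their median log2 ratio was -0.01, with 14 negative, and the median was -0.02 without Flox mice 4 and 6. The lowest p values belonged to the translocon protein Sec63 (-0.15 ± 0.08), the selenoprotein Selenof (0.19 ± 0.11) and the prolyl isomerase Fkbp9 (-0.19 ± 0.12). Of 28 other ERAD genes 1 had an unadjusted p under 0.05 (12.4% of all genes did), Bag6, a holdase for dislocated proteins (-0.24 ± 0.08, edgeR adjusted p = 0.248), and the median was -0.04, with 17 negative. The mannosidases Man1a and Man1a2 had -0.33 ± 0.18 and -0.19 ± 0.11. Of the heat shock genes outside the ER, Hsp90aa1 had 0.68 ± 0.23, Hspa8 0.59 ± 0.22 and the mitochondrial Hspd1 0.36 ± 0.15. Their edgeR adjusted p were 0.26, 0.299 and 0.349.

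Marker lists of lung cell types were read from the same libraries. In bulk tissue, fewer cells of a type and less RNA per cell cannot be told apart. The 8 AT2 markers were all positive (median 0.25) and summed to 40879 to 49006 CPM in Flox and 49132 to 60719 CPM in EpithelialKO. This sum is mostly Sftpc and did not overlap between the groups, whereas the mean log2 level of the 8 and each marker alone overlapped. The 6 club cell markers were all positive too (median 0.48), at 22876 to 49181 and 36187 to 56589 CPM. Of the 6 fibroblast markers 5 were negative (median -0.32), at 701 to 1076 and 622 to 794 CPM. The 5 endothelial markers were all negative (median -0.45), at 1749 to 2543 and 1458 to 1803 CPM. Among them Plvap had -0.50 ± 0.10 (edgeR unadjusted p = 9.39e-05, adjusted p = 0.0598), and its groups did not overlap. Plvap was chosen after its values were seen, and the groups overlapped in the other endothelial markers. The 7 plasma cell markers, Xbp1 among them, with 4 negative, had a median of -0.06 and summed to 476 to 768 and 678 to 784 CPM. Ciliated (5 of 5 positive), mucous (4 of 5 positive) and macrophage markers (4 of 5 positive) had medians of 0.36, 0.62 and 0.12. The negative macrophage marker, Marco, had -0.74 ± 0.14 (edgeR unadjusted p = 6.69e-05, adjusted p = 0.0598), and its groups did not overlap. Marco was chosen after its values were seen, and the groups overlapped in the other macrophage markers. With Flox mice 4 and 6 left out, the medians were 0.32 (AT2), 0.21 (club), -0.17 (fibroblast), -0.32 (endothelial), -0.16 (plasma), 0.20 (ciliated), 0.73 (mucous) and 0.38 (macrophage). No marker listed was at 0 in any mouse, and the lowest were the mucous markers Muc5ac and Agr2. The part of these cell types in the values of P4hb, the EDEM genes and the other genes of the set was not tested.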

How the data were processed

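Whole-lung RNA of 10 mice was sequenced from polyadenylated RNA, per the labels' protocols. The submitters' processing notes name cutadapt, HISAT2 and GRCm38. How reads were counted, on which annotation and strand, is not given in the sources used here. Deposited values are raw counts per Entrez gene, 1 column per mouse; symbols came from RefSeq (GRCm38.p6), which matched 25275 of 27179 genes. Of the 42 genes, 12 share exonic bases with a gene on the other strand (GENCODE M21), so their reads may be mixed.

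Counts were filtered with filterByExpr, scaled by TMM and tested over 15301 genes with edgeR 4.0.16 (quasi-likelihood, robust, group only) in R 4.3.3, with Benjamini-Hochberg adjustment. Intervals are 95% intervals of the fit. Levels per mouse use log2 CPM with a prior count of 2. Alternatives were DESeq2 1.42.0, limma 3.58.1 (voom with weights), sva 3.50.0 with 1 surrogate variable, other scalings and filters (none, or 1 CPM in 5 mice), an Xist class covariate, and fits without 1 mouse or without Flox mice 4 and 6. In data simulated for this comparison on 15301 genes, 39.3% of genes changed 1.5-fold were recovered, 69% at 2-fold and 87.3% at 4-fold, and 4.8% of calls were false.

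The genes, lists and motifs were chosen with earlier results of these data known. Values in every mouse are given for genes with an unadjusted p under 0.05 and for the 2 lowest p of each role. Outside the set, Ern1, Xbp1, Atf6 and up to 3 genes with the lowest p of each pathway list are named. No library repeats another (chi-square of any pair of mice at least 17 times its degrees of freedom). Protein sequences are not used here.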

Additional observations from a re-analysis of the deposited data

Results flagged for a closer look

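In 84 groups of 5 mice, 4 had a mouse whose gap to its nearest neighbour was over 0.71 of the group's range, a limit that chance passes in about 1 of 20 groups. Hspa5 was at 636 CPM in Flox mouse 5, against 486 to 521 CPM in the other Flox mice, and cytosolic heat shock genes were high in the same mouse. Ube2j1 was at 63.9 CPM in EpithelialKO mouse 17, against 79.2 to 84.3 CPM in the other 4. Sel1l was at 139 CPM in Flox mouse 6, against 120.3 to 125 CPM. Edem2 was at 29.1 CPM in EpithelialKO mouse 22, against 33.6 to 35.1 CPM, on the far side from the Flox mice.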

How the results depend on the processing

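Of the 42 genes, 1 was called under the DESeq2 Wald test (P4hb) and 0 under each other alternative run. The count of all genes called, 6, became 49 with 1 surrogate variable, 279 in DESeq2, 29 in limma-voom, 34 without a count filter, 1 with the Xist class as a covariate, 0 without Flox mice 4 and 6, and 0 to 48 when 1 mouse was left out (48 without Flox mouse 5, 0 without any other). The number of the 42 at an unadjusted p under 0.05 ranged from 7 to 14. ERAD recognition kept a median between -0.23 and -0.19 when 1 mouse was left out. The median of the dislocation genes turned negative with the Xist class (-0.019) and without Flox mice 4 and 6 (-0.017). That of the heat shock genes outside the ER was 0.063 and 0.064 there. It ranged from 0.15 to 0.61 when 1 mouse was left out. With 1 mouse left out, medians ranged from 0.04 to 0.17 for the major chaperones, -0.12 to -0.05 for the lectin cycle and -0.25 to -0.08 for the prolyl isomerases, and those of the plasma cell (-0.22 to 0.06) and macrophage markers (-0.11 to 0.22) and of the other ER folding genes (-0.05 to 0.0033) turned sign. The median of the sensors, -0.18, was -0.067 with the Xist class and -0.066 without Flox mice 4 and 6, and that of the other ERAD genes ranged from -0.074 to 0.0033 over the mice left out; the cause was not tested. The sign of Fkbp11 turned with 1 surrogate variable (-0.021) and in limma-voom (-0.094), and ranged from -0.12 to 0.18 when a mouse was left out. It was at a mean of 4.79 CPM in Flox, and the cause was not tested. The other 14 genes given by mouse under the rule kept their sign in all alternatives. No paired analysis was possible because the groups share no mouse numbers.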
